A study of Mus musculus with 12 samples.

Results

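The DNA methylation map of control colonic adenomas is described here, from 3 adenomas of C57BL/6J mice that carried the Min allele of Apc, were wild type for Tet1 and Tdg (Tet1+/+ Tdg+/+ ApcMin/+) and were killed at 150 to 160 days. Apc restrains Wnt signalling in the gut epithelium, and Min, which all groups of the series carry, is a truncating mutation of it. The series holds 12 adenomas, and the mutant genotypes do not enter. Methylation was read at CCCGGG, the recognition site of the enzymes SmaI and XmaI, by digital restriction enzyme analysis of methylation. SmaI cuts the site only when its CpG is unmethylated and XmaI then cuts what is left, so each read carries an end that tells the state of the site on that molecule. Described are all autosomal CCCGGG sites whose depth was 100 reads or more in each of the 3 adenomas, 18920 of 164896 listed autosomal sites (11.5%) and of 173449 sites in all. No label ties an adenoma to its mouse, and spreads below measure the difference between these adenomas. Adenoma 1 had 2525 reads on the Y chromosome, and adenomas 2 and 3 had 1 and 10.

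DNA methylation in mammals sits mainly on the cytosine of CpG. Most CpGs of the genome are methylated, while CpG islands, the dense clusters of CpG at many promoters, are usually free of it. In intestinal tumours some islands gain methylation and other parts of the genome lose it. CCCGGG is rich in C and G and contains a CpG, so it is frequent in islands. In RefSeq promoters of the GRCm38.p6 assembly (250 bases before to 50 after the start of an autosomal gene), CCCGGG was found in 13.8% of 31396 windows of 300 bases, at 565 sites per Mb, against 68.3 listed autosomal sites per Mb in mm9, the build of the deposited tables. The site reads the same on both strands. Sites are named by their mm9 position, and they were not assigned to genes or islands, because the gene table at hand is of another build. For the same reason the tissue could not be checked against marker genes.

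Reads at listed sites numbered 16551619, 16881059 and 12639191 in adenomas 1 to 3. The kept sites held 92.1 to 93.0% of the autosomal reads, with a median depth of 698, 711 and 525 reads, while the median over all listed autosomal sites was 3 to 4 reads. Which sites reached 100 reads went with the distance to the nearest listed site. Of sites whose nearest other CCCGGG lay at over 250 to 500 bp, 86.2% were kept. The share was 10.2% for a nearest site within 100 bp and 0.0761% (84 of 110406) for one beyond 750 bp, and the last class holds 67.0% of all listed autosomal sites. The map therefore covers sites that have a neighbour at a short distance and says little of the isolated sites that make up most of the listed sites. Sites just outside the depth minimum (least depth of 90 to under 100 reads) had a mean level of 33.3% and those just inside it (a class of 10 reads starting at 100, 420 sites) 32.7%.

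Most kept sites were unmethylated. The level is the percent of reads that came from methylated molecules, adjusted by the authors with spiked standards. It was below 5% at 61.1, 60.8 and 60.8% of the sites in adenomas 1, 2 and 3 (60.9% ± 0.194, SD, n = 3). Levels of 20 to 80% were found at 17.9, 19.3 and 18.4% of sites, and levels above 80% at 13.7, 12.5 and 13.5%. Between these, 5 to 20% was the level of 7.27, 7.43 and 7.25% of sites. The SD over the adenomas was at most 0.721 points in any class, small beside the differences between the classes. The mean level was 23.0, 22.5 and 23.1% and the median 0.38, 0.53 and 0.50%, so the mean was carried by the minority of methylated sites.

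**Figure D1:**
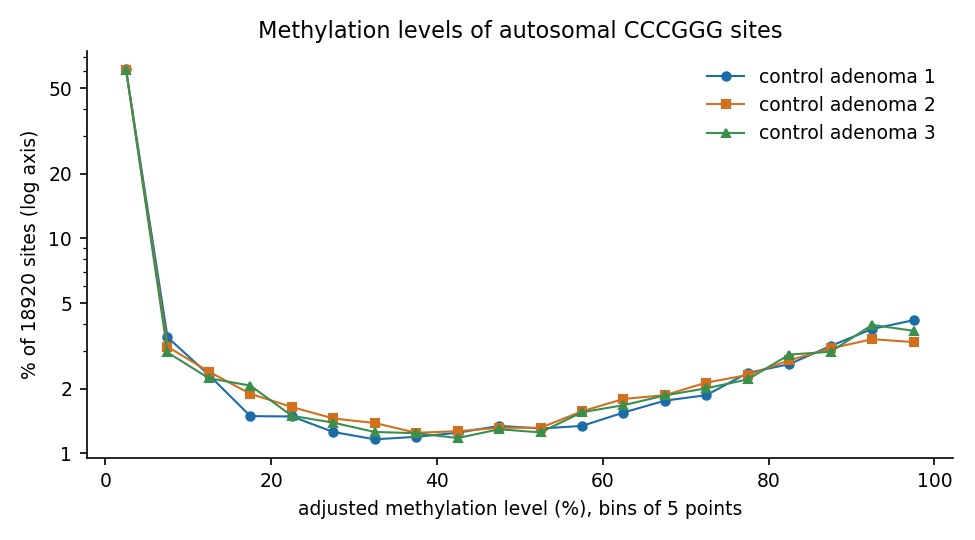
Share of the 18920 sites (y, percent on a log axis) in bins of 5 points of the adjusted methylation level (x), with 1 line per control adenoma. The lowest bin holds about 61% of sites in each adenoma, the share is lowest between 30 and 45%, and it rises again toward full methylation.

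The distribution had 2 ends and a shallow floor between them. The emptiest bin of 5 points was 30 to 35% in adenoma 1 (1.16% of sites), 35 to 40% in adenoma 2 (1.25%) and 40 to 45% in adenoma 3 (1.18%). No methylated read was seen in any of the 3 adenomas at 5216 sites (27.6%). With a median of 1705 reads summed over the adenomas, a count of 0 allows a level of up to 0.176% at such a site (0.0301 to 0.971% over these sites, 3 counts of the total). The unmethylated standard read 0.38 to 1.47% in the adjusted level, above the median limit but partly within the range of limits, which come from raw counts. At the other end, 44 sites had no unmethylated read in any adenoma. Grouped by their mean over the 3 adenomas, 11466 sites were below 5%, 1413 at 5 to 20%, 3648 at 20 to 80% and 2393 above 80%. In bulk tissue, a level between the ends cannot tell a share of methylated cells from a share of methylated alleles within each cell.

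Sites crowded together were unmethylated and sites with 1 neighbour or none were methylated more often. The mean level was 31.1% ± 0.479 (SD, n = 3) at sites with no other listed CCCGGG within 500 bp and 32.2% ± 0.392 at those with 1. It was 10.3% ± 0.151 with 2 others, 3.77% ± 0.0745 with 3 and 1.68% ± 0.0208 with 4. From 4 others on it did not fall further: it was 3.64% ± 0.0484 with 5 and 3.12% ± 0.136 with 6 or more. Sites with 0 or 1 other stood 29.1, 28.4 and 29.1 points above sites with 3 or more in adenomas 1, 2 and 3. The direction was the same in 3 of 3 adenomas, and 3 adenomas cannot give a two-sided exact sign-flip p below 0.25.

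**Figure D2:**
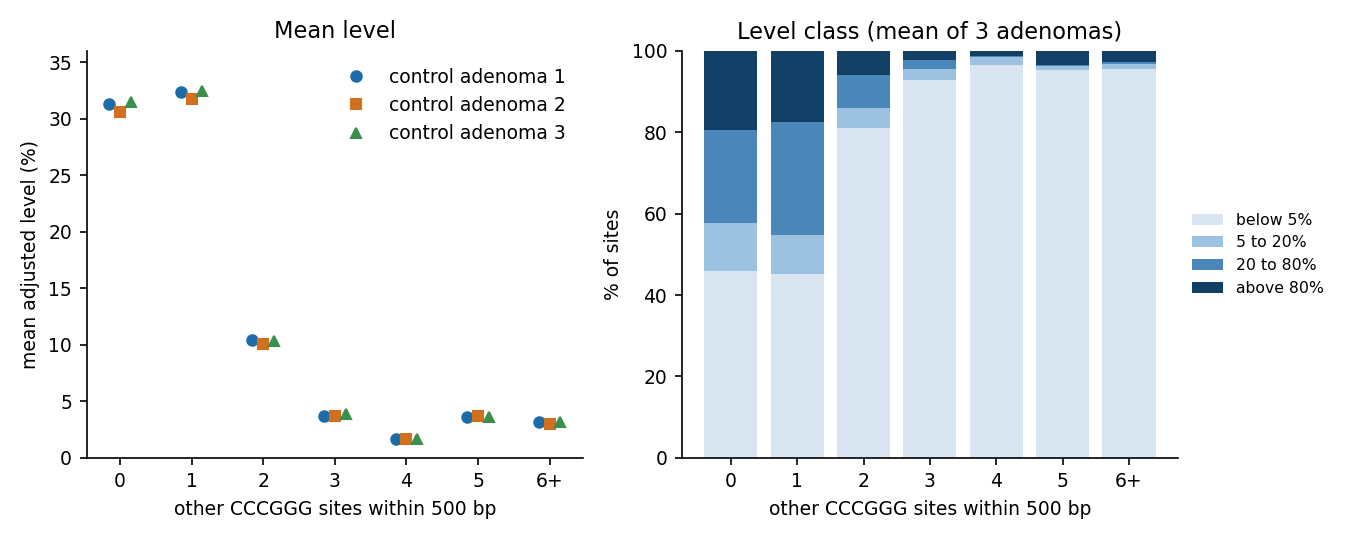
Left, mean adjusted level (y, percent) by the number of other listed CCCGGG sites within 500 bp (x), 1 point per control adenoma. Right, share of sites (y, percent) in each level class of the mean of 3 adenomas; the share below 5% goes from 45.8% with no other site to 96.5% with 4 others.

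The share of sites below 5% was 45.2% with 0 or 1 other site (n = 11950 sites), 81.0% with 2 (n = 3793) and 94.1% with 3 or more (n = 3177). Sites at 20 to 80% made up 27.6, 8.01 and 1.38% of these classes, and sites above 80% made up 17.5, 5.98 and 2.20%. Depth moved with the classes, with medians of 579, 802 and 744 reads, and the difference of 28.9 points between the outer classes was 29.8 points within sites of up to 200 reads, 32.5 within over 200 to 500 and 26.3 over 500.

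Among sites with exactly 1 other site within 500 bp, the level was lowest where that site was closest and changed little beyond 150 bp. From over 150 to 350 bp the mean level lay between 30.8 and 31.7%, and from over 350 to 500 bp between 34.7 and 35.9%, with SDs over the adenomas of 0.270 to 0.647 points. At over 100 to 150 bp it was 17.4% ± 0.217 (435 sites), and at 100 bp or less 4.23% ± 0.290 (58 sites). Few sites of such short spacing were kept, at a median depth of 147 and 209 reads, against 299.8 to 1051 reads in the bins beyond 150 bp.

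The 84 kept sites whose nearest listed CCCGGG lay beyond 750 bp were nearly all methylated. Their mean level was 97.0, 96.8 and 97.0% in adenomas 1, 2 and 3. Of the 84 sites, 82 were above 80% and 77 above 95%. Their median depth was 145 reads, close to the minimum, and 3 of them had a mean of over 1000 reads, with up to 80048 in a single adenoma. They are the 0.0761% of 110406 such sites that gave enough reads, and how they differ from the rest was not tested.

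Dense clusters that were methylated were few. Of 3177 sites with 3 or more others within 500 bp, 70 were above 80%, in 56 runs (sites with gaps of at most 500 bp between kept sites). Chromosome 6 held 16 of them among its 170 dense sites (9.41%) and chromosome 1 held 10 among 158 (6.33%), while chromosomes 9, 12 and 19 held none. On chromosome 6, a run of 4 kept sites from 42948860 to 42950033 averaged 94.6, 93.8 and 95.8% in adenomas 1, 2 and 3. A run of 5 on the same chromosome, from 117684543 to 117686176, had 4 sites above 80% and averaged 92.4, 86.4 and 88.8%. Another run there, from 58119437 to 58121110, had 4 of 6 sites above 80% and averaged 73.7, 71.5 and 77.8%. Runs on chromosomes 4 (125815974 to 125816735), 7 (149194858 to 149195249) and 11 (77654785 to 77655509) had all 4 of their sites above 80% too, and averaged 89.1, 91.1 and 87.4% over the adenomas. These 6 runs, 3 of them on chromosome 6, were picked out after their values were seen. Among runs with dense sites, they had most kept sites above 80%. Those counts take in all kept sites of a run, also sites with fewer than 3 others within 500 bp.

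By chromosome, the mean level ran from 17.5% ± 0.368 (SD, n = 3) on chromosome 19 to 25.6% ± 0.225 on chromosome 8. Chromosomes 2 (20.3% ± 0.304) and 16 (20.4% ± 0.169) followed the lowest, and chromosomes 17 (24.7% ± 0.511) and 1 (24.4% ± 0.187) came next to the highest. The spread over the adenomas was 0.136 to 0.511 points per chromosome, below the SD of 1.94 points over the 19 chromosome means. Chromosomes 19, 2 and 16 were the lowest in this order, and chromosome 8 the highest, in each of the 3 adenomas. On chromosome 19, 70.0% of 606 sites were below 5% and 9.08% above 80%, and on chromosome 8 these shares were 56.1% and 14.0% of 1139 sites.

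**Figure D3:**
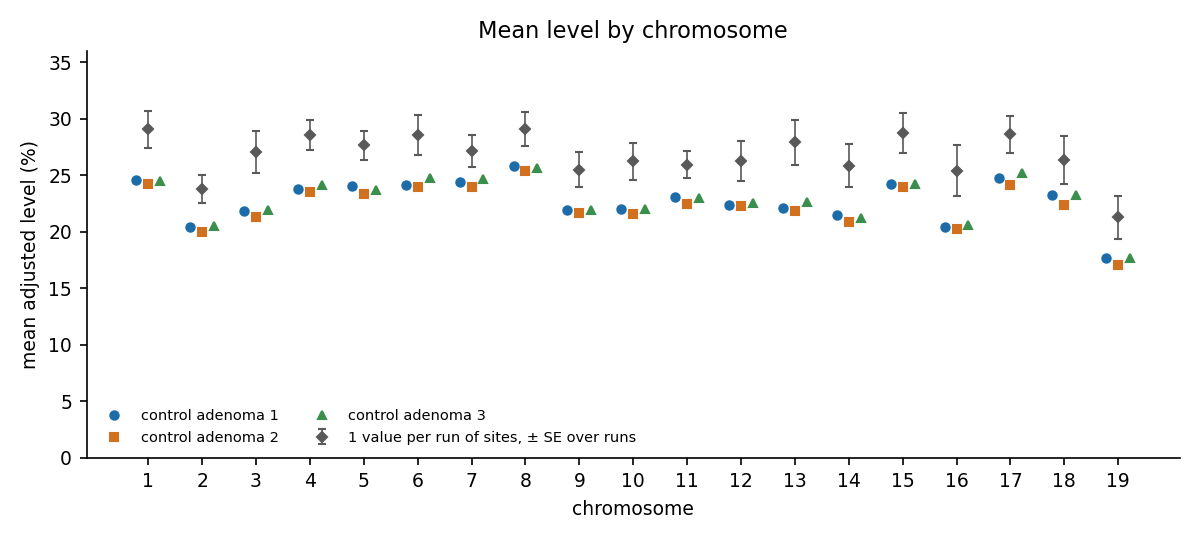
Mean adjusted level (y, percent) of the kept sites of each autosome (x), with 1 coloured point per control adenoma; grey diamonds give the mean over runs of sites with the SE over runs. The SD over the 3 adenomas is at most 0.511 points on any chromosome, while the chromosomes span 8.12 points.

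Sites of a chromosome are not independent, since neighbours share their state, so the order was also looked at per run of sites. Means over runs lay between 21.3% ± 1.93 (SE over 276 runs) on chromosome 19 and 29.1% (543 runs) on chromosome 8, with SEs of 1.18 to 2.26 points over the chromosomes. Of 19 chromosomes, 17 lay within 2 SE of the mean of the chromosomes (26.8%), all but chromosome 19 and chromosome 2 (23.8% ± 1.25, 697 runs). So most chromosomes did not stand apart beyond the variation between their runs, although their values repeated from adenoma to adenoma. With equal weight for the classes of 0 or 1, 2, and 3 or more other sites, chromosome 19 was again lowest (10.5%) and chromosome 6 highest (19.5%). At a depth minimum of 300 reads chromosome 16 was lowest at 16.3%, and chromosome 19 was at 17.0%. Across the 19 chromosomes, the mean level had r = 0.122 with listed sites per Mb and r = -0.181 with the share of sites with 3 or more others.

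Each chromosome's share of the autosomal reads differed by at most 0.232 points between adenomas, on chromosome 17 (7.63, 7.61 and 7.84%). Chromosome 18, which carries Apc, took 2.84, 2.87 and 2.86%. Its 542 kept sites averaged 23.2, 22.4 and 23.2%, near the middle of the order.

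Neighbouring sites had like levels, and the likeness ended within about 10 kb. Over all pairs of kept sites on a chromosome, Pearson's r of the mean level was 0.965 for pairs up to 100 bp apart (305 pairs), 0.906 at over 100 to 250 bp (4296 pairs) and 0.837 at over 250 to 500 bp (6957 pairs). It was 0.761 up to 1000 bp, 0.590 up to 2000 bp, 0.287 up to 5000 bp and 0.164 up to 10000 bp, each bin starting where the last ended. From there to 100000 bp it was 0.002 (33448 pairs). The values of single adenomas were close to these, for example 0.584, 0.583 and 0.588 from 1000 to 2000 bp. These correlations are across sites that share libraries and depth, and they describe the map.

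**Figure D4:**
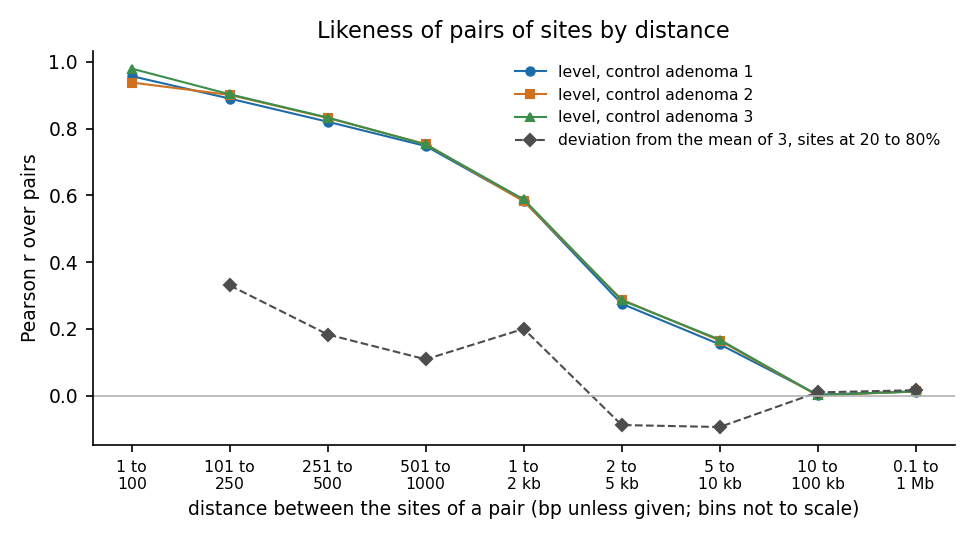
Pearson's r over pairs of kept sites (y) by their distance (x, bins not to scale): coloured lines give the level in each control adenoma, and the dashed line gives the deviation of each adenoma from the mean of 3 at sites of 20 to 80%. Likeness of level, over all kept sites, falls from above 0.9 within 100 bp to about 0 beyond 10 kb. That of deviations, with no value within 100 bp, is lower in each bin from there to 10 kb, but the sets of sites differ. At sites of 20 to 80% alone, r of the level was below that of deviations up to 2000 bp (0.246 against 0.330 at over 100 to 250 bp). It was above it from there to 10000 bp (0.188 against -0.0878 up to 5000 bp).

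Sites next to each other on the listing can bound the same fragment, so the ends of 1 molecule may be counted at both. Pairs with another listed site between them do not share a fragment when cutting is complete. Within 500 bp, r was 0.858 for pairs next to each other (9831 pairs) and 0.823 for pairs with another site between them (1727 pairs). The bins within this distance differed. Up to 100 bp the values were 0.964 (272 pairs) and 0.572 (33 pairs). At over 100 to 250 bp they were 0.904 and 0.968 (273 pairs with a site between), and at over 250 to 500 bp 0.827 and 0.802. At over 500 to 1000 bp these values were 0.752 and 0.753.

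The classes of neighbours showed where the likeness lay. Of the neighbours within 500 bp of a site below 5%, 95.9% were also below 5%, against 60.6% of all kept sites. Of the neighbours of a site above 80%, 52.8% were above 80%, 43.0% at 20 to 80% and 0.625% below 5%. Sites at 20 to 80% had neighbours at 20 to 80% in 57.2% of cases, against 19.3% of all kept sites. Sites at 5 to 20% had mixed company: 32.2% of their neighbours were below 5%, 34.1% in the same class and 28.5% at 20 to 80%. In all, 82.3% of pairs within 500 bp were of 1 class, against 42.6% for unrelated sites from the class frequencies alone. Leaving out pairs with both sites below 5%, 46.7% of the other 3834 pairs were of 1 class, against 10.6% of such pairs 0.1 to 1 Mb apart. Within the class of 20 to 80% the level itself was shared only loosely: the median difference between neighbours was 14.4 points (991 pairs, r = 0.191), against 18.2 points for pairs 0.1 to 1 Mb apart.

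The kept sites formed 8906 runs, of which 1509 held 1 site and 5773 held 2. Of the 7397 runs of at least 2 sites, 53.8% (3983) were below 5% throughout, 12.1% (894) lay at 20 to 80% throughout and 6.52% (482) were above 80% throughout. Long runs were of the first kind: 198 of 224 runs with 5 or more sites were below 5% at every site, 7 held a site above 20% and 0 were above 80% throughout. The longest unmethylated runs had 10 sites, on chromosome 8 from 91565089 to 91567388 (0.325, 0.537 and 0.405% in adenomas 1, 2 and 3) and on chromosome 19 from 26679967 to 26681990 (0.0107% ± 0.00586, SD, n = 3). A run of 9 on chromosome 5, from 143577870 to 143580189, averaged 0.0137% and was 1 of 5 of that length. The longest methylated runs had 4 sites, and there were 5 of them. One on chromosome 4, from 125815974 to 125816735, averaged 89.1% ± 2.61 (SD, n = 3), and one on chromosome 6, from 117678213 to 117679209, averaged 90.5, 89.2 and 93.6%.

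Sharp steps between neighbours were rare. Of 10014 pairs of adjacent kept sites within 500 bp, 77.8% differed by under 10 points and 1.99% by 60 points or more, and 17 runs (0.230%) held a site below 5% and a site above 80%. On chromosome 17, position 56618921 was at 0% in each adenoma, and position 56619420 was at 96.6, 96.2 and 91.4%. On chromosome 10 the level went from 96.8, 97.2 and 96.7% at position 3996697 to 5.18, 2.77 and 0.62% at position 3997072. On chromosome 11, position 5025910 was at 5.73% ± 1.11 (SD, n = 3) and position 5026369 at 99.3% ± 0.915, and position 73507210 was at 89.8% ± 3.31 with 0.340% ± 0.157 at position 73507452, 242 bp on. On chromosome 18, position 60755058 was at 90.5% ± 1.23 and position 60755463 at 0.993% ± 0.260. At each of these 5 steps the sites were next to each other on the listing. The steps were chosen for the size of their mean difference, which leaves little room for an adenoma without the step.

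The spread between the adenomas in points was smallest at the ends of the scale, where a percent has least room to vary, and largest in the middle. The median SD over the 3 adenomas was 0.0404 points at sites below 5%, 2.73 at 5 to 20%, 6.74 at 20 to 80% and 2.23 above 80%. All 3 adenomas fell in 1 class at 87.5% of sites (16552). This share was 97.8% of sites below 5% by their mean, 56.6% at 5 to 20%, 71.7% at 20 to 80% and 80.6% above 80%. No site was below 5% in one adenoma and above 80% in another.

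Much of this spread was larger than read counting gives. Methylated and unmethylated reads differed between the 3 libraries at 4946 of 13660 sites with reads of both states (36.2%, chi-square test, Benjamini-Hochberg adjusted p under 0.05), a test that compares these libraries and treats reads as independent molecules. The test took raw counts, without the adjustment by standards, so a shift of a whole library enters it. The share was 8.43% of tested sites below 5%, 57.3% at 5 to 20%, 71.1% at 20 to 80% and 43.2% above 80%. Without adenoma 1 it was 17.7% of tested sites in place of 36.2%, and the median SD at 20 to 80% was 4.33 points. Without adenoma 2 the share was 28.5% and without adenoma 3 it was 29.2%, and each of these tests has 1 library fewer. At 20 to 80%, the root mean square SD was 9.47 points where counting alone gives 2.32, so counting made up 6.03% of the variance. The observed value was 4.07 times that of counting in this class, 1.82 times below 5% and 2.89 times above 80%, so the ends also varied by more than counting gives.

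**Figure D5:**
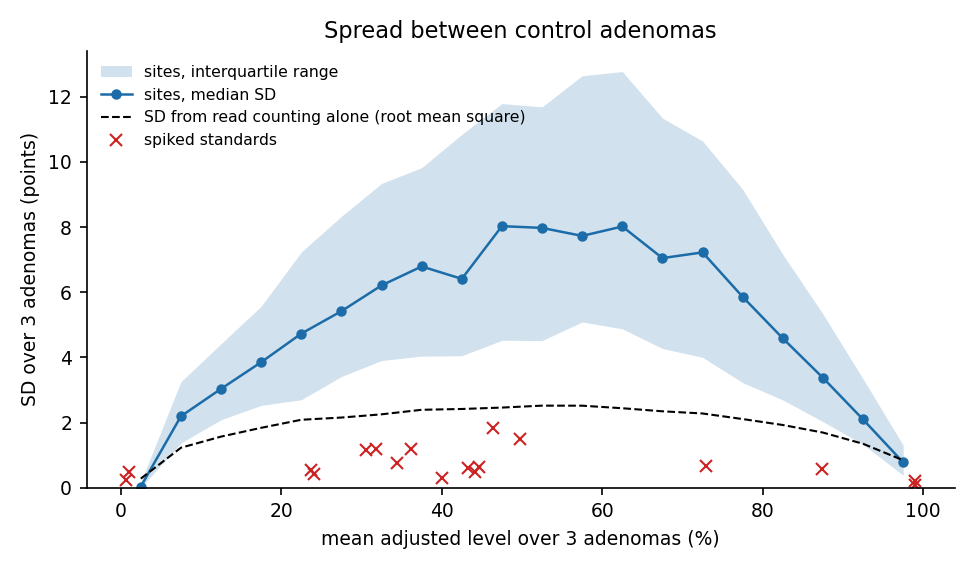
SD over the 3 control adenomas (y, points) by mean adjusted level (x, percent, bins of 5 points): median and interquartile range over sites, the SD that read counting alone gives, and the spiked standards as crosses. Site medians reach 8.03 points at 45 to 50%, where counting gives 2.46 points, and the standards, which were read more deeply, lie at 1.84 or less.

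The spiked standards show how far the assay repeats itself. For 13 standards at 20 to 80%, the SD over the 3 libraries was 0.301 to 1.84 points (median 0.677) in the adjusted level, which was set with standards, and 0.373 to 2.35 points (median 1.67) in the raw level. The raw SD was above what read counting gives for each of the 13 but Sla374_2 (0.373 against 0.445 points). It was widest at Gfp_1 (2.35 against 0.543 points). The part of such shifts in the share of differing sites was not tested. The standards had 1182 to 41356 reads, more than most sites, so their spread and that of the sites are not at matched depth. At sites of 20 to 80% with a mean depth of 1000 reads or more (475 sites), the median SD was 6.34 points, against 7.67 at 100 to under 200 reads (396 sites). By surroundings, the median SD was 6.74 points with 0 or 1 other site within 500 bp, 6.84 with 2 and 5.38 with 3 or more (44 sites). It was 7.22 points at sites whose kept neighbours averaged below 5% and 6.35 where they averaged above 80%, with interquartile ranges of 4.17 to 11.5 and 3.53 to 9.86. It was 7.90 points at the 364 sites with no kept neighbour, whose median depth was 209.7 reads.

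The range over the 3 adenomas reached 10 points at 2950 sites (15.6%), 20 points at 1031 (5.45%), 30 points at 334 (1.77%) and 50 points at 25 (0.132%). Of the 1031 sites with a range of 20 points, 914 were at 20 to 80% by their mean, which is 25.1% of that class. Adenomas 2 and 3 were the most alike. At sites of 20 to 80%, r over sites was 0.824 for adenomas 2 and 3, 0.761 for 1 and 2 and 0.732 for 1 and 3, with median differences of 5.97, 8.01 and 8.36 points. Pairs of libraries differed at 17.7% of tested sites for adenomas 2 and 3, 29.9% for 1 and 2 and 28.5% for 1 and 3 (chi-square test, adjusted p under 0.05).

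Adenoma 1 stood alone most often. Sites were counted where 1 adenoma lay at least 10 points from the mean of the other two and those were within 5 points of each other. Adenoma 1 was the higher at 363 sites (1.92% of 18920) and the lower at 360 (1.90%), in both directions alike. Adenoma 2 was the higher at 81 sites (0.428%) and the lower at 315 (1.66%), and adenoma 3 at 206 (1.09%) and 180 (0.951%). With the raw level the total was 758 for adenoma 1, 375 for adenoma 2 and 404 for adenoma 3, so that adenoma 1 led on both scales. The 363 and 360 sites lay in 340 and 346 runs on all 19 chromosomes, with at most 32 and 41 on 1 chromosome. Adenoma 1 also differed from the others in its Y chromosome reads, and the part of sex in this was not tested.

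A shift of a whole adenoma was small and depended on the adjustment. At sites of 20 to 80% the mean level was 54.1, 52.4 and 54.4% in adenomas 1, 2 and 3. Adenoma 2 was the lowest on all 19 chromosomes in the adjusted level, but on 9 in the raw level, where adenoma 3 was lowest on 10. The raw means were 54.7, 53.5 and 53.4%. The adjustment moved these sites by an average of -0.554, -1.17 and 0.957 points.

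Where the adenomas differed, neighbours differed in the same way only in part. For pairs within 500 bp with both sites at 20 to 80% (991 pairs), the deviations of the adenomas from the mean of 3 had r = 0.240, with 0.330 at over 100 to 250 bp and 0.183 at over 250 to 500 bp. At 0.1 to 1 Mb r was 0.0165. Without adenoma 1 the value within 500 bp was 0.136. At 433 of the 991 pairs both sites had a range of 10 points or more, and the same adenoma was highest at both in 48.3% and lowest at both in 50.6%. Unrelated sites of this kind would share the highest adenoma in 36.5% and the lowest in 33.7%, from the frequencies alone. Only 15 of the 991 pairs had another listed site between them, too few for a value. At sites of 5 to 95%, 65 such pairs within 500 bp gave 0.226, against 0.190 for all 2810 pairs, a range chosen after the data were seen. At 20 to 80% and over 500 to 1000 bp, all 141 pairs gave 0.109 and the 75 with another site between them 0.0368. Up to 2000 bp these values were 0.200 (50 pairs) and 0.209 (41 pairs). From there to 5000 bp they were -0.0878 (134 pairs) and -0.0813 (115 pairs).

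The most variable sites show both kinds of difference. On chromosome 19, position 42543913 was at 21.95, 88.4 and 89.0% in adenomas 1, 2 and 3. Its neighbour 285 bp away was at 76.3, 70.4 and 88.9%, so adenoma 1 was low at only the first of these. Also on chromosome 19, position 56900888 was at 32.3, 32.0 and 97.2%, and here the neighbour 155 bp away followed, at 44.1, 32.3 and 94.2%. On chromosome 14, position 14766131 was at 79.5, 11.2 and 53.2%, and its neighbour 318 bp away had the same order, at 85.5, 41.3 and 71.8%. On chromosome 5, position 120474005 was at 75.4, 20.2 and 9.98% while the site 165 bp away was at 1.06, 2.28 and 1.65%. On chromosome 18, position 46625477 was at 60.8, 5.08 and 4.03%, and 241 bp away the level was 12.6, 0.45 and 0.64%. These sites were chosen for their spread, so their size is a description.

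Sites at which 1 adenoma left the other two gave further examples. Adenoma 1 was higher at position 58111994 on chromosome 5, at 62.6% against 8.78 and 11.5%, and the site 155 bp away was at 59.0, 6.87 and 7.10%. It was higher at position 79659156 on chromosome 15 (87.8% against 35.4 and 40.3%), where the site 249 bp away was at 55.2, 19.3 and 23.2%. It was lower at position 141987364 on chromosome 4 (11.9% against 62.1 and 66.7%) and at position 45030187 on chromosome 6 (36.5% against 80.6 and 81.8%). Adenoma 2 was higher at position 29458281 on chromosome 9 (55.2% against 9.50 and 12.4%) and, by less, at positions 174483103 on chromosome 2 (27.1 points) and 112514178 on chromosome 12 (25.7 points). Its largest falls from the others were at position 112432185 on chromosome 5 (43.1% against 95.3 and 91.8%) and at positions 81568538 and 38383798 on chromosome 18, where it was at 43.99% and 51.0% and the mean of the others at 86.7% and 93.7%. Adenoma 3 was higher at position 153465633 on chromosome 4 (66.3% against 27.6 and 28.4%) and at position 172371788 on chromosome 2 (47.7% against 10.5 and 10.7%). It was lower at position 118801188 on chromosome 11 (26.1% against 75.7 and 74.8%), at position 45678404 on chromosome 13 (43.7% against 86.03 and 88.4%) and at position 82258092 on chromosome 11 (44.1% against 83.2 and 79.8%). Some neighbours of these sites followed them and others did not. Adenoma 1 was also the lowest near position 141987364 (17% against 38.4 and 45.6%). Adenoma 2 was also the highest near position 29458281 (11.4% against 2.13 and 4.77%) and near position 112514178 (14.97% against 0.74 and 2.68%). Elsewhere the neighbour did not follow. The site 450 bp from position 81568538 was at 80.1, 77.2 and 78.3%, and the one 162 bp from position 172371788 was at 4.57, 1.57 and 3.73%. The listed sites nearest to positions 81568538 and 172371788, at 37 and 27 bp, were not among the kept neighbours. Near position 153465633 the neighbour was at 16.2, 25.7 and 16.5%, and near position 45678404 it was at 18.7, 34.3 and 21.98%. At 464 bp from position 118801188, where adenoma 3 was the lowest, it was the highest, at 81.0% against 61.8 and 58.3%. Values at the sites named here for 1 adenoma or for their SD rested on 135 to 1603 reads per adenoma. The widest 95% Wilson interval had a half-width of 8.04 points, which covers counting error only.

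Some sites were at a middle level in each adenoma. All 3 levels lay at 40 to 60% at 309 sites. The least spread was at position 92644556 on chromosome 16 (41.9, 41.7 and 42.1%), position 125878256 on chromosome 8 (45.8, 45.4 and 45.9%) and position 168433636 on chromosome 2 (45.8, 45.2 and 45.8%). The ranges of 0.47 to 0.65 points at these sites were fixed by the choice, and the Wilson half-widths of their single values reached 5.76 points.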

How the data were processed

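For every CCCGGG site the authors gave read counts of each state, methylated or not, with mm9 positions per the file headers. They also deposited 2 percent columns, a raw methylation level and one corrected by spiked standards as the labels' protocols describe. Trim Galore, Bowtie2 and mm9 are named per the submitters' processing notes, with no versions given in the sources used here, and the labels' protocol text names a rat build.

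Sites with at least 100 reads in all 3 control adenomas were kept. Neighbours were counted among all listed sites. The adjusted level was used unless stated, with SD over adenomas. Raw counts of the libraries were compared per site with a chi-square test and Benjamini-Hochberg adjustment at 0.05 over sites with reads of both states, tested on simulated data. Intervals are 95% Wilson intervals, and no molecular identifiers are named. Python 3.11.15, numpy 2.4.6, scipy 1.17.1, pandas 2.3.3 and matplotlib 3.10.9 were used.

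The members, classes and bins were chosen with earlier results of these data known. Named sites, at most 1 per run, were the 5 with the largest SD, the 3 farthest sites per adenoma and direction where the other two were within 5 points, the 5 largest steps within 500 bp, the 3 longest runs of each end class, and the 3 least variable sites at 40 to 60%. Alternatives covered depth, level scale, window, pairs, X and left-out adenomas.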

Additional observations from a re-analysis of the deposited data

Results flagged for a closer look

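Signal lay on the sex chromosomes, which the autosomal map leaves out. Adenoma 1 had 2525 reads at Y chromosome sites, and adenomas 2 and 3 had 1 and 10. Of 8435 listed X chromosome sites, 324 had at least 100 reads in all 3 adenomas. In female mammals one X is silenced and methylated at many of its islands, as background. Below 5% lay 67.9% of these X sites in adenoma 1 and 3.70% in each of adenomas 2 and 3. Levels of 20 to 80% were found at 11.4% of them in adenoma 1, 60.8% in adenoma 2 and 63.9% in adenoma 3. The median X level was 0.345, 29.9 and 35.0%. Adenoma 1 was the lowest of the 3 at 264 of 324 X sites (81.5%) and at 4287 of 18920 autosomal sites (22.7%). It was the highest at 12.0% of the X sites and 23.6% of the autosomal sites. The autosomal sites include 5216 with no methylated read in any adenoma, where none stands lowest, so the shares are not directly comparable. These differences between adenomas were not tested.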

How the results depend on the processing

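Of 88 recomputed values of 8 results, 51 moved by less than the spread between adenomas (for the share of differing sites, less than 1.5 times) and 37 moved further. For the median SD, the spread was that of the values with each adenoma left out. The count that changed direction was 0. Shares, spans and SDs cannot be negative, so direction could change only for the difference by neighbours, the r of neighbours and the r of deviations. The cause was not tested where none is given. The share of sites below 5% (60.6%) was 50.5, 57.8 and 63.9% at depth minimums of 20, 50 and 300 reads, 59.7% with X included and 45.8% without sites of 1 state. The share at 20 to 80% (19.3%) was 17.8% at 300 reads and 26.7% without sites of 1 state. The difference by neighbours (28.9 points) was 39.1, 31.1 and 27.3 points at 20, 50 and 300 reads, 33.6 without sites of 1 state, 23.0 and 33.0 with windows of 250 and 1000 bp and 26.4 with kept neighbours alone. It was 29.8, 32.5 and 26.3 in the depth classes from low to high. The span of chromosome means (8.12 points) was 8.63, 7.43 and 7.85 at 20, 50 and 300 reads, 16.7 with X, 7.72 without sites of 1 state, 9.03 with equal weight of density classes, 7.82 per run and 5.32 without chromosome 19, the last chosen after seeing the data. The r of neighbours (0.862) was 0.871 at 20 reads, 0.823 without sites of 1 state and 0.823 with another site between. The r of deviations (0.240) was 0.309 with X, and pairs with another site between them were too few for a value. The share of differing sites (36.2%) became 15.6% or 5.45% when called by a range of 10 or 20 points of all kept sites, and 37.2% by Fisher's exact test over pairs of libraries. Leaving out each adenoma gave 59.6 to 60.7% below 5%, 18.7 to 19.8% at 20 to 80%, 28.8 to 29.2 points by neighbours, 7.91 to 8.16 points between chromosomes, r of 0.858 to 0.864 and of 0.136 to 0.302 for deviations, a median SD of 4.33 to 6.22 points and 17.7 to 29.2% of sites differing. With the raw level, the range at each of 23 named sites moved by at most 2.26 points. No paired analysis was possible because only 1 group enters.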

Other observations

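From 10 reads up, the mean level was lower in each deeper class of autosomal sites. At the 2504 autosomal sites with at least 1000 reads in every adenoma the mean level was 4.16, 4.10 and 4.20% in adenomas 1, 2 and 3, and 86.2% of sites were below 5%. At 500 to under 1000 reads it was 21.9, 21.4 and 21.9%, and at 200 to under 500 reads 28.5, 28.1 and 28.7%. Below the depth minimum, sites with a least depth of 50 to under 100 reads averaged 40.7%, with 42.3% of them below 5% and 29.6% above 80%. At the 6131 sites whose least depth was 20 to 49 reads the mean level was 61.5, 61.5 and 62.0%, with 53.9% of sites above 80%, and at 10 to 19 reads (8735 sites) it was 69.3, 69.5 and 70.3%. The order ended there: at 1 to 9 reads (70805 sites) the mean was 60.5%. The share of sites with another CCCGGG within 500 bp was 99.9% at 1000 reads or more and 12.5% at 10 to 19 reads. It was 98.7% at 200 to under 500 reads and 99.99% at 500 to under 1000. From 200 reads up this share thus hardly changed while the mean level fell. Finer spacing was not compared by depth class. Spacing and depth cannot be told apart in these values, and levels of shallow sites carry more counting error.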
